A study of Mus musculus with 22 samples.

Results

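The forkhead (Fox) transcription factors were followed through the epithelium of the fetal mouse urogenital sinus, in both sexes and with or without Sox9. A gene was taken as a family member if its symbol in the platform's probe annotation was Fox followed by a subfamily letter and a number, and if its probe set carried no other symbol. This gave 39 of 30102 genes with a name of their own, from 17 subfamilies, and each was read by 1 probe set. A further 4 probe sets, whose symbols include Foxj1, Foxj2, Foxm1 and Foxp3, list another gene as well and were not used as members.

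RNA was measured on 22 whole-transcript arrays, 1 per sample, at stage E16.75 of gestation on a C57BL/6J background. The knockouts were ShhCre/+; Sox9fl/fl, so that Cre sits at 1 Shh allele and acts in cells that have expressed Shh, and the littermate controls were Shh+/+; Sox9+/fl, with no Cre but with a floxed Sox9 allele of their own. Each male group had 6 samples and each female group 5. Replicates are labelled as biological, but not whether a sample was 1 fetus or a pool, so p-values measure the spread between these samples.

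Forkhead factors bind DNA through a conserved winged-helix domain. FOXA1 and FOXA2 are pioneer factors, which can bind their sites in closed chromatin, and they act early in endodermal epithelia such as lung, gut and the urogenital sinus. FOXA1 works beside the androgen receptor in prostate epithelium. FOXF1, FOXF2 and FOXL1 belong to the mesenchyme around such epithelia, where they respond to hedgehog ligands, and FOXC1 and FOXC2 act in mesenchyme, vessels and some epithelia. The FOXO factors are held out of the nucleus by insulin signalling, and the FOXP factors are mainly repressors.

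The 250 bases upstream of the annotated start are shown for Foxa1, Foxa2 and Foxc1, the members whose sex difference is described first below. They are RefSeq promoter windows of the GRCm38.p6 assembly, read 5′ to 3′ on the gene's strand, and for Foxa2, which has 3 annotated starts, the window farthest upstream is given. Capitals mark a match to one of 4 short motifs searched on both strands, namely the forkhead motif TGTTTAC, its second form TGTTTGC, the SOX motif ACAAT and the androgen receptor half-site AGAACA.
Foxa1, chr12:57546112-57546361, minus strand: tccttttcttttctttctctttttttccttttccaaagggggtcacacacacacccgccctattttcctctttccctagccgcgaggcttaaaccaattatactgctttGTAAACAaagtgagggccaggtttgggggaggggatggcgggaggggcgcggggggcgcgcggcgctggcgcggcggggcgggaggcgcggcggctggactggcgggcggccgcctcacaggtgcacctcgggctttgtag
Foxa2, chr2:148046970-148047219, minus strand: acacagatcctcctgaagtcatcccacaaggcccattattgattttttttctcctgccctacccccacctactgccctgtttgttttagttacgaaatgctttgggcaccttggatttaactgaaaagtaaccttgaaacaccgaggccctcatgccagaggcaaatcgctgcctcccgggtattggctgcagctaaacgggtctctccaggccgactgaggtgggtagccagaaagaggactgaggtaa
Foxc1, chr13:31806396-31806645, plus strand: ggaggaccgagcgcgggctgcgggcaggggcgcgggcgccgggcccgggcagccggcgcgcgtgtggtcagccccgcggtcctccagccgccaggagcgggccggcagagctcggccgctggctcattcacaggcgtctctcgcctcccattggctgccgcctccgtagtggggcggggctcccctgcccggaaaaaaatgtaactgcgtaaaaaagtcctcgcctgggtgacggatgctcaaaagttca
The Foxa1 window holds TGTTTAC on the strand opposite to the gene, 141 to 135 bases before the start. That motif is present in 3.17% of the 32851 windows of this length in the table and in 1 of the 30 windows of the 26 members matched. The second form was found in 2 member windows, those of Foxj3 and Foxp1 (4.3% of all windows). The SOX motif was found in 3 (Foxd4 and windows of Foxp1; 27.7% of all), and the half-site in 1, that of Foxi2 (16.1% of all). None of these letters occurs in the Foxa2 and Foxc1 windows. The member windows were rich in G and C, with a median of 62.4% against 52.4% over all windows.

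Array values are log2 as deposited. Group differences compare a probe set's value only with itself on other arrays, whereas its level was set against the array median and background controls. The arrays carry 23 background control probe sets ordered by G and C content, whose means run from 2.12 to 6.69, so a probe set rich in G and C can read above the array median (5.10 to 5.27) without signal of its own. Of the 39 members, 34 lay above the median of their array on all 22 arrays, and 37 passed the filter for testing, which asked for a value above the array median on at least 5 arrays. By the stricter comparison with every background control, 16 members lay above on all 22 arrays: Foxa1, Foxa2, Foxc1, Foxd2, Foxi1, Foxi3, Foxj3, Foxk1, Foxk2, Foxn2, Foxn3, Foxo1, Foxo3, Foxp1, Foxp4 and Foxq1. A further 6 did so on some arrays (Foxo4 on 21, Foxn1 on 19, Foxf1 on 7, Foxo6 on 3, Foxf2 and Foxp2 on 1 each) and 17 on 0 arrays. The base composition of the members' probes was not used here, so whether the 17 are expressed was not tested.

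Sox9 checked the genotype labels: it fell by 1.07 (SE 0.08) on the log2 scale in male and by 1.00 (SE 0.09) in female knockouts (limma adjusted p = 1.04e-07 and 2.28e-06). Shh, the locus of the Cre, fell by 0.45 and 0.56 (SE 0.08 and 0.09; limma adjusted p = 0.00874 and 0.0128). In the knockouts, loss of Sox9, the Cre allele and the lower Shh cannot be told apart. The tissue label was met by its markers: all 10 epithelial and all 7 basal genes lay above the array median on every array, with Cdh1 between 12.15 and 12.53. By the same measure, which does not set signal apart from background, 10 of 12 mesenchyme, 7 of 9 smooth muscle, 2 of 8 endothelial and 8 of 9 immune genes did so, the immune exception being the pan-leukocyte marker Ptprc, below it on every array. Of the remaining cell type lists, all 8 urothelial, all 7 genital duct and 5 of 7 neural crest genes lay above the array median on every array. For the T cell list it was 1 of 7 and for the blood list 0 of 2. The urothelial gene Upk1a lay between 12.53 and 13.01. The 12 mesenchyme genes had a mean between 6.46 and 6.88 on 21 arrays and 7.54 in male control 6, which stood apart.

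The pair of FOXA pioneer factors differed between the sexes in opposite directions. Foxa2 was lower in males. In female controls its values were 8.72, 8.92, 8.96, 9.0 and 8.69, and in male controls they ran from 8.45 through a median of 8.57 to 8.78. Of the 6 male controls 4 lay below every female control, and the other two lay above the female controls at 8.69 and 8.72. The mean was 8.60 ± 0.15 (SD, n = 6) in male against 8.86 ± 0.14 (n = 5) in female controls, a difference of -0.26 (SE 0.07, limma adjusted p = 0.0268).

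In the knockouts the same difference in Foxa2 appeared in arrays not shared with the controls. The female knockouts read 8.87, 8.95, 8.92, 8.92 and 8.96, and the male knockouts ran from 8.50 through 8.57 to 8.80. All 6 male knockouts lay below all 5 female knockouts. The difference was -0.30 (SE 0.07, limma adjusted p = 0.00928), and averaged over both genotypes it was -0.28 (SE 0.05, 95% interval -0.39 to -0.18, limma adjusted p = 0.000348), a 1.21-fold lower level in males. In this bulk tissue, fewer cells with Foxa2 RNA and less of it per cell cannot be told apart. The averaged call held whichever array was left out. The call in controls alone was lost without male control 1 (-0.23), male control 3 (-0.23), or female control 2 (-0.25), 3 (-0.24) or 4 (-0.23), while the call in knockouts held without any single array. With each array centred on its median the differences were -0.22 in controls and -0.28 in knockouts, and neither was called (limma adjusted p = 0.185 and 0.0697). With only the control arrays in the model the difference in controls was -0.26 (limma adjusted p = 0.0829).

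Foxa1, whose protein works beside the androgen receptor in prostate epithelium, was higher in males among knockouts. The female knockouts read 10.86, 10.83, 10.92, 10.78 and 10.99, and the male knockouts ran from 11.04 through 11.09 to 11.16. Every male knockout lay above every female knockout. The means were 11.09 ± 0.04 (SD, n = 6) and 10.88 ± 0.08 (n = 5), a difference of 0.22 (SE 0.06, limma adjusted p = 0.0237). The call was lost without male knockout 2 (0.20) or female knockout 1 (0.21), 2 (0.21) or 4 (0.19).

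Among controls the sexes overlapped in Foxa1. The female controls read 10.72, 10.92, 10.95, 10.89 and 10.80. The male controls ran from 10.74 through 10.96 to 11.06, with replicates 1 and 6 at 10.74 and 10.76 and the other 4 at 10.94 or more. The difference was 0.06 (SE 0.06, limma adjusted p = 0.614). The larger difference among knockouts did not pass a test of its own: the knockout minus the control sex difference was 0.16 (SE 0.08, limma adjusted p = 0.997, 95% interval -0.02 to 0.33). Averaged over genotypes Foxa1 was 0.14 higher in males (SE 0.04, limma adjusted p = 0.0262), a call lost on leaving out control 1 (0.12) or 5 (0.13) or knockout 4 (0.13) of the females. Foxa3, the third FOXA gene, had group means between 6.14 and 6.27, on no array above every background control, and was not called in any of the 7 comparisons.

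**Figure D1:**
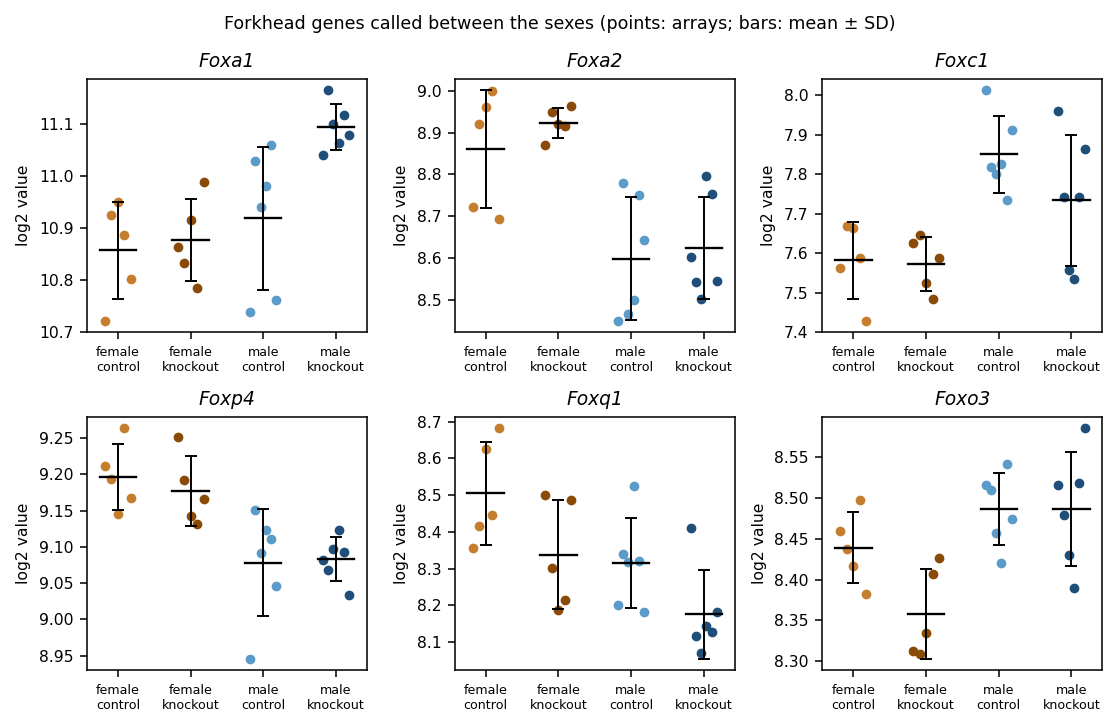
Log2 values of the 6 forkhead genes called between the sexes, by group; each point is 1 array, the long bar is the group mean and the whiskers are ± SD (n = 5 per female and 6 per male group). Foxa2 is lower and Foxc1 higher in both male groups, and the 6 male knockouts lie above all 5 female knockouts for Foxa1.

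Foxc1 and Foxq1 lie in 1 cluster on chromosome 13 with Foxf2 between them as the protein-coding neighbour, and they differed between the sexes in opposite directions. Foxc1, a factor of mesenchyme, vessels and eye that also occurs in epithelia, was higher in males. The female controls read 7.56, 7.67, 7.66, 7.59 and 7.43 and the male controls ran from 7.73 through 7.82 to 8.01. No male control overlapped with a female control. The means were 7.85 ± 0.10 (SD, n = 6) and 7.58 ± 0.10 (n = 5), a difference of 0.27 (SE 0.07, limma adjusted p = 0.0178).

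In knockouts Foxc1 read 7.62, 7.65, 7.53, 7.48 and 7.59 in females and from 7.54 through 7.74 to 7.96 in males. Of the 6 male knockouts 4 lay above every female knockout and the other two lay among them. The difference was 0.16 (SE 0.07, limma adjusted p = 0.215), and over both genotypes it was 0.21 (SE 0.05, 95% interval 0.11 to 0.32, limma adjusted p = 0.00344). The averaged call held without any single array, and the call in controls was lost without female control 5 (0.23). Without male control 6, the array high in mesenchyme genes, the difference in controls was 0.26 (limma adjusted p = 0.038), and with the mesenchyme mean as a covariate it was 0.27 (limma adjusted p = 0.0229).

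Foxq1, a factor of epithelia and hair, was lower in males, averaged over genotypes. It read 8.36, 8.42, 8.63, 8.45 and 8.68 in female controls and 8.50, 8.30, 8.19, 8.21 and 8.49 in female knockouts. Male controls ran from 8.18 through 8.32 to 8.52 and male knockouts from 8.07 through 8.14 to 8.41. In each genotype 5 of 6 male arrays lay below every female array. The averaged difference was -0.18 (SE 0.05, limma adjusted p = 0.0319). It was not called within controls (-0.19, limma adjusted p = 0.165) or within knockouts (-0.16, limma adjusted p = 0.28). The averaged call was lost without any of 9 arrays, namely male controls 1 and 6, male knockouts 2, 3 and 5, female controls 3 and 5 and female knockouts 1 and 5, with differences between -0.20 and -0.15 over all 22 omissions. It was also lost with median centring (-0.15, limma adjusted p = 0.11).

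Foxp4, a FOXP repressor of foregut and lung epithelium, was slightly lower in males. Female controls read 9.21, 9.19, 9.15, 9.26 and 9.17 and female knockouts 9.25, 9.19, 9.14, 9.13 and 9.17. Male controls ran from 8.95 through 9.10 to 9.15 and male knockouts from 9.03 through 9.09 to 9.12. The male and female knockouts did not overlap, and 5 of 6 male controls lay below all female controls. The averaged difference was -0.11 (SE 0.03, limma adjusted p = 0.0125), within controls it was -0.12 (limma adjusted p = 0.0835) and within knockouts -0.09 (limma adjusted p = 0.211). The averaged call held without any single array and was lost with median centring (-0.08, limma adjusted p = 0.183). Of its relatives, Foxp1 had an averaged difference of 0.07 (limma adjusted p = 0.175) and Foxp2 of 0.02 (limma adjusted p = 0.756).

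Foxo3, one of the FOXO factors restrained by insulin signalling, was slightly higher in males. It read 8.46, 8.44, 8.42, 8.50 and 8.38 in female controls and 8.31, 8.31, 8.34, 8.41 and 8.43 in female knockouts, and its medians were 8.49 in male controls (8.42 to 8.54) and 8.50 in male knockouts (8.39 to 8.59). The sexes overlapped in both genotypes. The averaged difference of 0.09 (SE 0.03, limma adjusted p = 0.0459) was close to the threshold. Leaving out 1 array ended the call for 16 of the 22, and it was kept without male control 4, male knockout 3 or 4, female control 4 or female knockout 4 or 5, with values of 0.08 to 0.10 over all omissions. It was also lost with quantile normalization (0.08), with median centring (0.12), without the filter (0.09) and with the mesenchyme mean as a covariate (0.09). Foxo1 had an averaged difference of -0.11 (limma adjusted p = 0.0988).

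In all, 2 of the 37 tested members were called between control males and females, Foxc1 higher and Foxa2 lower, against 6.94% of the 19050 genes tested (3.27% higher and 3.67% lower). Among knockouts 2 were called, Foxa1 higher and Foxa2 lower, against 7.19% (3.66% higher and 3.52% lower). Averaged over genotypes 6 were called, 3 higher and 3 lower, which is 16.2% of the members against 13.6% of all genes (6.53% higher and 7.04% lower). With median centring the higher genes made up 61.7% of all calls in controls in place of 47.1%, and 61.2% on the average in place of 48.1%. The members' shares are near the background of a tissue in which many genes differed by sex. The median member difference was -0.04 in males against -0.01 over all genes, and members ran from -0.28 to 0.21. Groups of controls did not overlap between the sexes for 1 member, Foxc1 (5.64% of all genes), and groups of knockouts for 3, Foxa1, Foxa2 and Foxp4 (5.82%). Controls and knockouts share no array, and 22 of 37 members had the same sign of sex difference in both, 59.5% against 68% of all genes. The count in knockouts fell to 1, Foxa2, without male knockout 2 or female knockout 1, 2 or 4, and that in controls to 1 in the omissions named above. Leaving out female control 5 reduced the averaged count to 3 (Foxa2, Foxc1 and Foxp4), and leaving out male control 4 raised the count in controls to 4, adding Foxb1 and Foxn1.

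**Figure D2:**
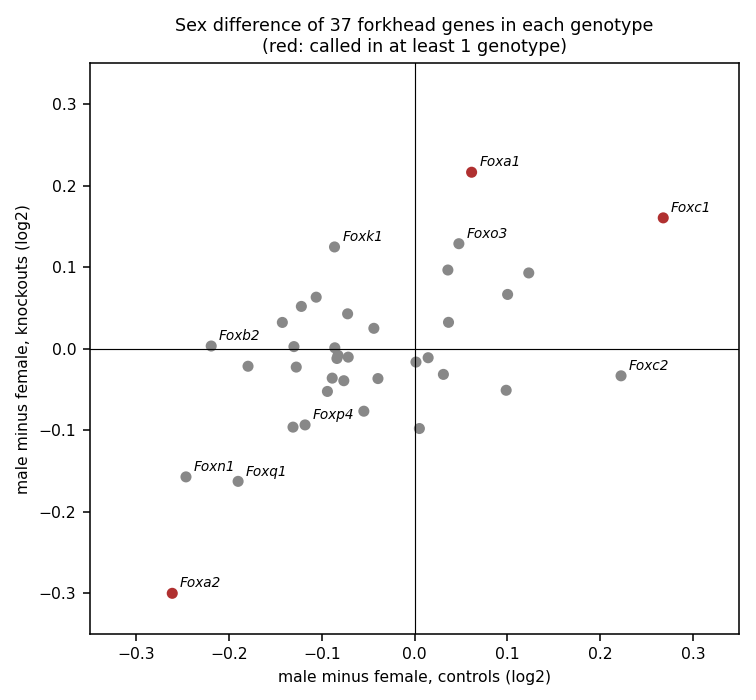
Male minus female difference on the log2 scale for each of the 37 forkhead genes tested, in controls (horizontal axis) and in knockouts (vertical axis); red points were called in at least 1 genotype. Foxa2 lies at -0.26 and -0.30 and Foxc1 at 0.27 and 0.16, and the uncalled Foxq1 and Foxn1 are negative on both axes.

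None of the 37 members was called between knockouts and controls. In males 0 were called, against 0.199% of all genes (0.021% higher and 0.178% lower). In females 0 were called, against 0.0315%, and averaged over the sexes 0, against 0.247% (0.0472% higher and 0.199% lower). An unadjusted limma p under 0.05 was found for 2 of the 37 members in males, against 6.27% of all genes. It was found for 1 member in females (5.46% of all genes) and for 2 averaged over the sexes (7.19%). The count stayed at 0 in every alternative run for these 3 comparisons, each omission of 1 array included. The median standard error of a member's difference was 0.07 in each sex.

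Foxa1 had the smallest p in males. Its 6 male knockouts (11.04 to 11.16) lay above the mean of the male controls, and 5 of them above every male control, so that the groups overlapped, as they did for all members in males (0.42% of all genes were apart). The difference was 0.18 (SE 0.06, 95% interval 0.06 to 0.29), which did not pass over all genes (limma adjusted p = 0.459). Without male control 6 it was 0.14 (limma adjusted p = 0.733). In females it was 0.02 (limma adjusted p = 1.00, 95% interval -0.11 to 0.15), and averaged over the sexes 0.10 (limma adjusted p = 0.604).

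Foxa2 differed by 0.03 in males (95% interval -0.12 to 0.17) and by 0.06 in females (-0.09 to 0.22). Its male and female knockouts overlapped with their controls, and the limma adjusted p-values were 0.975 and 1.00.

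Foxk1, a broadly expressed forkhead factor of metabolism and autophagy, had the smallest p in females. The controls read 8.39, 8.43, 8.46, 8.43 and 8.39 and the knockouts 8.27, 8.14, 8.33, 8.21 and 8.25. The groups did not overlap, a separation found for 1 of 37 members and 1.39% of all genes. The difference of -0.18 (SE 0.06) was not called (limma adjusted p = 0.712). In males Foxk1 differed by 0.04, and the male minus female effect of 0.21 (SE 0.08) was not called (limma adjusted p = 0.997). No member was called in that comparison, against 0.00525% of all genes.

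Foxq1 had the smallest p when the sexes were averaged, at -0.15 (SE 0.05, limma adjusted p = 0.447). It was -0.14 in males, where 5 of 6 knockouts lay below every control, and -0.17 in females, where 3 of 5 did. Male knockout 1, at 8.41, was the male exception. Foxp2, the speech-related FOXP factor, was the other male member with an unadjusted p under 0.05, at -0.14 (SE 0.05, limma adjusted p = 0.66).

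**Figure D3:**
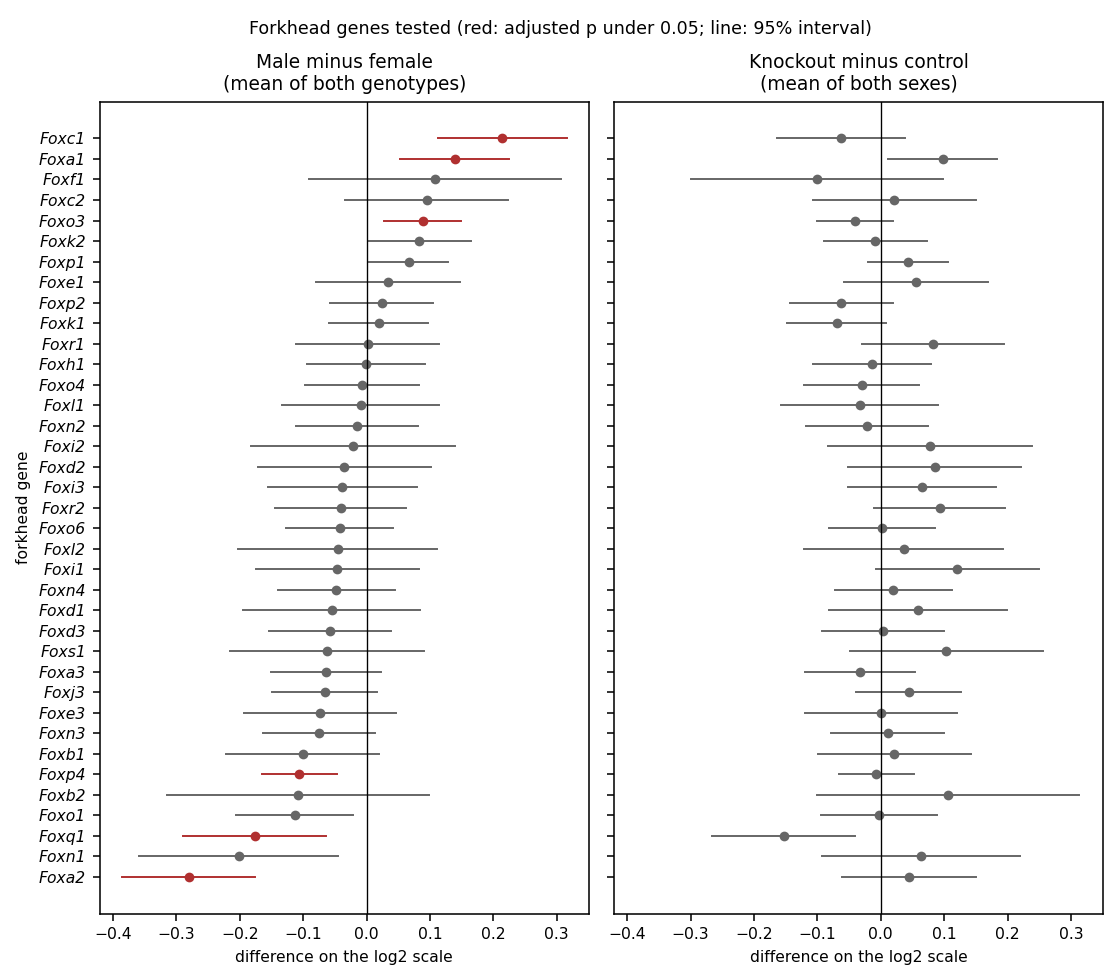
Differences of the 37 tested forkhead genes on the log2 scale, male minus female averaged over genotypes (left) and knockout minus control averaged over the sexes (right); points are estimates, lines are 95% intervals and red marks an adjusted p under 0.05. The left panel has 6 called genes, from Foxa2 at -0.28 to Foxc1 at 0.21, and the right panel has none.

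The mesenchymal FOXF factors followed 1 array rather than a group. Foxf2 was below the array median on 21 arrays, where it read at most 4.75, and was 7.20 in male control 6. It did not pass the filter and was not tested. Foxf1 read 6.39, 6.60, 6.68, 6.74 and 6.49 in male controls 1 to 5 and 7.60 in male control 6, against at most 6.77 on the other 21 arrays. Its knockout minus control difference in males was -0.12 with that array and 0.06 without it, and was not called (limma adjusted p = 0.926). The mean of Foxf2 in male controls was 4.97 ± 1.11 (SD, n = 6) with the array and 4.52 ± 0.22 (n = 5) without it.

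The same array was high in stromal and vascular markers. Its mesenchyme mean was 7.54, its smooth muscle mean 6.94 against at most 6.12 elsewhere, and its endothelial mean 5.57 against at most 5.04, with Acta2 at 9.27, Col1a1 at 8.97 and Cdh5 at 7.08. Their part in the FOXF values was not tested. Foxl1 lies next to Foxc2 on chromosome 8, with Mthfsd between Foxc2 and Foxf1. Foxl1 was also highest in male control 6, at 6.22 against at most 6.04 elsewhere, and was not called in any comparison. Foxc2 read 5.28 there, within the 4.95 to 5.35 of the other male controls. It passed the filter with 8 arrays above their median, and its sex difference in controls was 0.22 (limma adjusted p = 0.149).

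**Figure D4:**
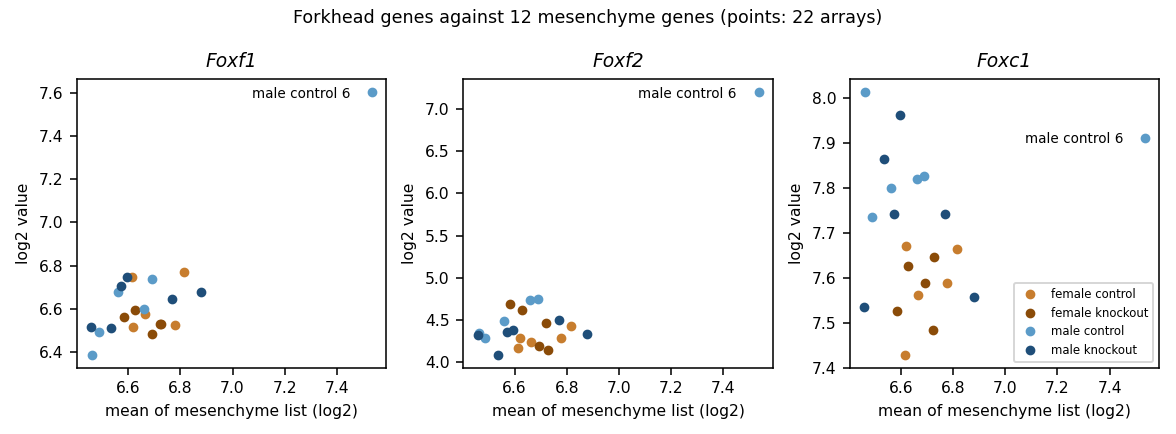
Log2 values of Foxf1, Foxf2 and Foxc1 (vertical axes) against the mean of 12 mesenchyme genes on the log2 scale (horizontal axes), with 1 point per array coloured by group. Male control 6 stands alone at a mesenchyme mean of 7.54 with Foxf1 at 7.60 and Foxf2 at 7.20, whereas its Foxc1 lies within the range of the other male controls.

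The other members gave no call. The FOXI factors, of which FOXI1 directs acid-secreting ionocytes, had group means of 7.41 to 7.58 for Foxi1 and 7.06 to 7.17 for Foxi3, and Foxi1 differed by 0.12 in knockouts of both sexes averaged (limma adjusted p = 0.745). Foxn1, which acts in thymic and hair epithelium, had means of 6.75 in male and 7.00 in female controls and an averaged sex difference of -0.20 (limma adjusted p = 0.0837). The broadly expressed Foxk2, Foxj3, Foxn2 and Foxn3 had group means between 7.20 and 8.44. Foxd1 and Foxd2 had group means of 5.81 to 5.96 and 6.90 to 7.07, and Foxd3, a factor of the neural crest, ran from 6.30 to 6.75 over all arrays. Foxd4 was below the array median on every array, at 2.91 to 3.48, and was not tested. Members known from other tissues lay on no array above every background control, and the ranges of their group means follow. Foxb1 of the brain ranged from 5.75 to 5.93, Foxe1 of the thyroid from 5.76 to 5.85 and Foxe3 of the lens from 6.44 to 6.53. Foxl2 of the ovary ranged from 5.47 to 5.55, Foxh1, a partner of SMAD proteins, from 5.56 to 5.60, and Foxs1 from 5.14 to 5.30. Foxr1 and Foxr2 had means of 5.46 to 5.56 and 5.23 to 5.36.

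Genes linked to the forkhead factors were read from lists, in males minus females averaged over genotypes, where 6.53% of all genes were called higher and 7.04% lower. Group means are given here for called genes near the highest background control mean (6.69). Tff2 (5.84 to 6.35), Atp6v1b1 (5.61 to 5.94) and Lum (6.12 to 6.69) did not exceed it in any group. Esr1 (5.81 to 6.73), Gli1 (6.39 to 6.74), Bmp4 (6.34 to 6.79) and Muc1 (6.65 to 7.10) lay below it in some groups. Of 9 secretory genes tied to FOXA factors, 3 were higher and 0 lower in males. Agr2, a disulfide isomerase of mucus cells, was 0.81 higher (SE 0.08), Tff2, a trefoil peptide, 0.47 (SE 0.10) and Muc1, a membrane mucin, 0.43 (SE 0.09). The list median was 0.03 against -0.01 for all genes. Of 17 epithelial factors that work beside FOXA, 4 were higher (Tfap2a 0.29, Ehf 0.25, Elf3 0.23 and Tfap2c 0.15) and 2 lower, against the same 6.53% and 7.04% of all genes. These were the estrogen receptor gene Esr1, at -0.88 (SE 0.06, limma adjusted p = 5.49e-10), and Trp63, which maintains basal epithelium, at -0.11. Ehf, an ETS factor of epithelia, was also the single gene of this list called between knockouts and controls, at -0.24 averaged over the sexes (SE 0.04, limma adjusted p = 0.0107). In that comparison 0.199% of all genes were called lower and 0.0472% higher. The Trp63 call was kept in 13 of 22 omissions of 1 array and lost with median centring, with differences of -0.12 to -0.08 over all settings run.

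Foxm1 itself was not read, because its probe set lists another gene as well, and the part of FOXM1 in its targets was not tested. Of 18 mitotic genes known as FOXM1 targets, 10 were called higher in males and 0 lower, against 6.53% and 7.04% of all genes. The other 8 did not pass, and all 18 had a positive difference, with a list median of 0.17. Within controls 5 of 18 were called higher, against 3.27% of all genes, with a list median of 0.19. Within knockouts 1 of 18 was called higher, Cdc25b, against 3.66% of all genes, with a list median of 0.11. The called genes were Cdc25b (0.26), Top2a (0.25), Aurkb (0.24), Cenpe (0.22), Cenpf (0.21), Cdc20 (0.21), Bub1 (0.19), Plk1 (0.19), Nek2 (0.15) and Ube2c (0.15). They include a phosphatase (Cdc25b), a topoisomerase (Top2a), kinases (Aurkb, Plk1, Bub1, Nek2) and a kinetochore motor (Cenpe) of cell division. Plk1, Bub1 and Cdc20 lay near the threshold (limma adjusted p = 0.0409, 0.0348 and 0.0327). Their calls were kept in 8, 11 and 14 of 22 omissions of 1 array and were lost with median centring, and their differences stayed positive in every setting run.

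Of 18 FOXO targets 1 was higher and 5 lower in males, against 6.53% and 7.04% of all genes. Bnip3, a mitophagy receptor that hypoxia also induces, was at -0.51 (SE 0.07), Pik3ip1, an inhibitor of PI3 kinase, at -0.25 and Bcl2l11, a pro-apoptotic BH3 protein, at -0.18, whereas Gadd45a, a stress-response gene, was at 0.17. Ccng2 and Bcl6 were the other lower genes, at -0.14 and -0.16, of which Bcl6 kept its call in 9 of 22 omissions and under 4 of 9 other settings. Ccng2 lost its call with median centring and Gadd45a with quantile normalization. The list median was -0.02. Of 8 genes of FOXI1 ionocytes 3 were lower and 0 higher, against 7.04% and 6.53% of all genes: Slc4a9, an anion exchanger, at -0.69 (SE 0.07), Car2, a carbonic anhydrase, at -0.42 and Atp6v1b1, a proton pump subunit, at -0.21, the last kept in 13 of 22 omissions. The Atp6v1b1 call was also lost with quantile normalization and with median centring. Foxi1 itself was at -0.05 (limma adjusted p = 0.695).

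Of 12 hedgehog genes 4 were higher and 1 lower in males, against 6.53% and 7.04% of all genes. The list median was -0.03, against -0.01 for all genes, with 5 of 12 positive. Shh was at 0.52 (SE 0.06), Bmp4 at 0.39, Boc, a co-receptor, at 0.30, and Ptch1, the receptor, at 0.12 (kept in 5 of 22 omissions), whereas the target Gli1 was at -0.26. Foxj1, whose probe set also lists another gene, was not read. Of 8 tested motile cilium genes, the list of FOXJ1, 1 was higher, Rfx3 at 0.17. Another 9 of the 17 with a probe set were below the array median on every array. In knockouts averaged over the sexes Shh, at -0.51, was the single hedgehog gene called, and the other 5 forkhead-linked lists had 0 calls. Of all genes 0.247% were called in this comparison. The genes of smallest p in those 5 lists were Agr2 at 0.30 (limma adjusted p = 0.135), Car2 at -0.31 (0.255), Bcl6 at -0.17 (0.291), Cenpa at 0.09 (0.658) and Ccdc40 at 0.06 (0.87). Cell type markers also differed by sex beside these genes. Of 8 urothelial genes Psca was 0.88 higher in males and no other was called, whereas the list median was -0.12 with 2 of 8 positive. Of 10 general epithelial genes Cldn7 and St14 were 0.08 and 0.11 higher and the luminal keratins Krt8 and Krt18 0.18 and 0.31 lower, with 5 positive. The Cldn7 and St14 calls were kept in 11 and 16 of 22 omissions and lost with quantile normalization. Median centring also ended the call of Cldn7. Of 7 basal genes Krt14 was 0.32 lower, Trp63 was lower as given above, and 4 were positive. Of 10 mesenchyme genes Lum was 0.40 higher and Dcn and Fbln1 0.32 and 0.15 lower, and Ret, Th (neural crest list) and Ikzf2 (T cell list) were 0.21, 0.40 and 0.17 higher. The Fbln1 call was lost with median centring. Of the smooth muscle, endothelial, immune, genital duct and blood lists 0 genes were called. The part of epithelial composition in the forkhead differences was not tested.

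**Figure D5:**
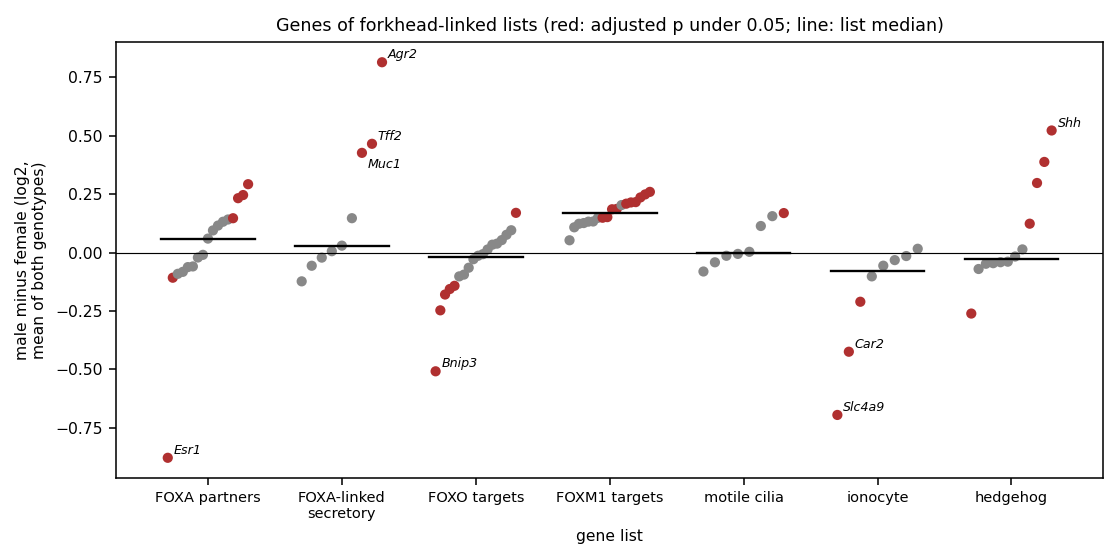
Male minus female difference on the log2 scale, averaged over genotypes, of each tested gene of 7 forkhead-linked lists; points are genes ordered by value within a list, red marks an adjusted p under 0.05 and the bar is the list median. The 18 FOXM1 targets all lie above 0 with a median of 0.17, whereas the other lists hold genes on both sides.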

How the data were processed

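The authors deposited 1 table of log2 values for 72688 probe sets on 22 arrays, of which 65770 were transcript clusters. Per the labels' protocols the tissue was digested, the mesenchyme and the bladder and urethral epithelium were removed, and RNA was labelled with biotin. How the signals were corrected for background, normalized and summarized is not stated in those sources. The log2 scale follows from the range of values (1.59 to 14.23), and the number of arrays limits the precision.

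Probe sets were named from the platform annotation where it gave 1 symbol (30439), updated through GRCm38.p6 gene identifiers for 827. Those above the array median on at least 5 arrays were tested, 1 per gene (highest mean), 19050 genes. limma 3.58.1 in R 4.3.3 fitted 4 group means over all arrays, with 18 residual degrees of freedom and default eBayes, for 7 comparisons. A gene was called at a two-sided p under 0.05 after Benjamini-Hochberg adjustment across the genes tested. The labels name no litter, batch or scan date.

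Genes described in full were Foxa1, Foxa2, each member called, and otherwise the member of smallest p in a comparison, with others by group means. From the lists, genes called in an averaged comparison were named. The array values of Foxf1, Foxf2, Foxl1 and Foxc2, the single differences of other uncalled members and the cell type markers were chosen after their values were seen. Members and lists were chosen with earlier results of these data known.

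Alternatives were other normalizations, filters, probe set rules, eBayes options, array weights, a mesenchyme covariate, a replicate block, the compared groups alone, and each array left out. The programs were tested on simulated data. Figures used matplotlib 3.10.9.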

Additional observations from a re-analysis of the deposited data

Results flagged for a closer look

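In 9 of 156 groups of a member's values (39 members in 4 groups), 1 array stood apart from the rest of its group by Dixon's criterion, and chance gives about 1 in 20. Male control 6 stood apart for Foxf1 (7.60, others 6.39 to 6.74) and for Foxf2 (7.20, others 4.28 to 4.75). Male control 4 stood apart for 3 members: Foxd3 (6.75, others 6.30 to 6.44), Foxi3 (7.30, others 6.99 to 7.06) and Foxj3 (7.30, others 7.46 to 7.53). Female control 3 did so for Foxo4 (7.07, others 6.86 to 6.91) and Foxo6 (6.76, others 6.52 to 6.58), and female control 1 for Foxd2 (6.85, others 7.04 to 7.11). Male knockout 1 stood apart for Foxq1 (8.41, others 8.07 to 8.18). Of these genes Foxq1 alone was called in a comparison.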

How the results depend on the processing

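The counts of 0 members in the 3 comparisons of knockouts with controls and in the comparison of their effects between the sexes stayed at 0 under every alternative. Without single arrays, the members called numbered 1 to 4 for control males against females, 1 to 3 for knockouts and 3 to 8 for the average. With median centring the counts were 1, 1 and 3. With only the compared groups in the model 1 was called in controls. Differences that were not called changed sign in some cases: without single arrays Foxa2 in male knockouts ran from -0.0091 to 0.062 and Foxa1 in female knockouts from -0.014 to 0.043, with array weights the former was -0.0165, and with quantile normalization the latter was -0.0027. Centring moved the share of higher genes among all calls from 47.1% to 61.7% in controls and from 48.1% to 61.2% on the average, but the median of all genes by at most 0.04. At the 75th percentile 18 members were tested instead of 37. Samples with the same replicate number did not deviate together: correlations of their deviations ran from -0.21 to 0.25, 3 of 4 pairs of groups had 1 pair above 0.1, and at most 1 sample in a pair of groups correlated best with its own number. With the replicate block the counts were 1 in controls (Foxc1) and 3 on the average (Foxa1, Foxa2 and Foxc1), and 2 in knockouts as before. The averaged calls of Foxo3, Foxp4 and Foxq1 were lost with it, as were those of Tfap2c, Cenpe, Cdc20, Bcl6, Gadd45a, Atp6v1b1, Ptch1, Cldn7, St14 and Fbln1 among the listed genes.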
